A study of Mus musculus with 2 samples.

Results

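Tex14-high cells are the GL261 glioma cells in which the largest share of the RNA counted came from Tex14, a gene known for its work in the testis. They were taken from 1 library of adherent cells and 1 library of neurosphere cells. In each library the cells were ranked by the Tex14 share of their UMIs (unique molecular identifiers, each standing for 1 captured RNA molecule), and the top 8% were taken: 404 of 5051 adherent cells and 342 of 4276 neurosphere cells, 746 of 9327 kept cells in all and of 10715 cells called. They are compared with the kept cells of the same library in which no Tex14 UMI was counted, 1812 adherent and 962 neurosphere cells. The remaining 2835 adherent and 2972 neurosphere cells held Tex14 at a lower share.

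GL261 is a mouse glioma line derived from C57BL/6 mice, grown here in DMEM that held 10% FBS as well as 1% penicillin-streptomycin. The adherent group was grown in that medium alone, attached to the flask. The neurosphere group was grown as floating spheres for 12 days after EGF at 20 ng/ml, FGF at 20 ng/ml and B-27 at 1:50 were added to it. The sample labels give trypsin for both cell suspensions. The study's methods name it for the adherent cells, and centrifugation and trituration for the neurospheres. Both suspensions were frozen in medium with 10% DMSO before library preparation. A single line in culture holds no host tissue, and each group is 1 library. There is thus no replicate and no test: every difference is given by its size, and the 95% intervals (exact Poisson for levels, exact conditional for fold changes, exact binomial for shares) cover counting error only.

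Tex14 encodes a kinase-like protein of the intercellular bridge. In male germ cells, dividing cells do not complete abscission, the last cut of cytokinesis, and stay joined by stable bridges. TEX14 is known to hold these bridges open by binding CEP55, the midbody protein that otherwise brings in the machinery that cuts. Somatic cells normally complete abscission and are not known for high Tex14.

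The cells were chosen on a single transcript, so the DNA beside its start, and beside the start of other RNAs that were high in these cells, is shown for context (RefSeq promoters, GRCm38, read 5′ to 3′ on the gene's strand, only bases before the start and outside annotated exons). Capitals mark a match to any of 6 short motifs on either strand: CCAAT box (CCAAT), TATA box (TATAAA), GC box (GGGCGG), E-box (CACGTG), cAMP response element (TGACGTCA) and ETS core (CCGGAA). Tex14 lies at chr11:87405065-87555823 on the plus strand. The 110 bases just before its start lie outside annotated exons and held 1 GC box (chr11:87404955-87405064).
Tex14: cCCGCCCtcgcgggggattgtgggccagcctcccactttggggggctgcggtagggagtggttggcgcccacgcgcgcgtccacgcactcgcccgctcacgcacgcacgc
The start of Rab26os, the short antisense RNA used as a marker of these cells, lies inside Rab26 (chr17:24528001-24528247, plus strand). Its 247 bases held 4 CCAAT boxes and 1 TATA box.
Rab26os: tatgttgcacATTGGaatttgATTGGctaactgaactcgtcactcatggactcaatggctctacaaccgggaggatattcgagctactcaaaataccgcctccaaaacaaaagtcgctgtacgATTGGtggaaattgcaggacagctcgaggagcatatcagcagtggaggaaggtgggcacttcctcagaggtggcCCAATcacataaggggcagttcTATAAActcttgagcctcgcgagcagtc
The window before Snhg3, a small nucleolar RNA host gene, held 1 CCAAT box (chr4:132353687-132353936, minus strand).
Snhg3: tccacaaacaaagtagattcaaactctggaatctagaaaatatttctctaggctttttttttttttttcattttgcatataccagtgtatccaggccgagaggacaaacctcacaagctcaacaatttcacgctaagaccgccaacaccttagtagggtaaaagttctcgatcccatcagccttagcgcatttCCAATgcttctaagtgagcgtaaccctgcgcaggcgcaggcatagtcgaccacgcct

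The same motifs were counted in the 300-base promoter windows of all genes that have one in the RefSeq table. Of 288 genes that were higher in Tex14-high cells of both libraries (below), 192 had a window. A TATA box was found in 12.5% of them, in 6.53% of the 7277 windows of genes tested in both libraries and in 14.2% of all 27025 windows. Of the 75 windows of long noncoding genes among them, 17.3% held a TATA box and 42.7% a CCAAT box, against 6.53% and 40.1% of the windows of tested genes. Of the 117 windows of protein-coding genes among them, 9.40% held a TATA box and 34.2% a CCAAT box. The tested genes were 96.4% protein coding and their windows were not split by class. The part of gene class in these shares was therefore not tested. A CCAAT box was found in 37.5%, a GC box in 61.5%, an ETS core in 29.2%, an E-box in 10.9% and a cAMP response element in 4.69% of the 192 windows. The shares over the windows of tested genes were 40.1%, 68.6%, 32.3%, 10.9% and 3.75%. A match is a description of the letters and names no factor.

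The libraries held 68531063 UMIs (adherent) and 82832873 UMIs (neurosphere). The median Tex14-high cell held 7091.5 UMIs in the adherent and 12277.5 in the neurosphere library, and the median cell without Tex14 held 7358 and 9121.5. The comparison cells of the neurosphere library were therefore shallower than the Tex14-high cells, and some ratios below were smaller with comparison cells weighted to the same depth. Mitochondrial UMIs made up a median of 2.26% of all UMIs in adherent Tex14-high cells against 2.07% in cells without Tex14, and 3.97% against 4.52% in the neurosphere library. Ribosomal protein UMIs made up 28.2% against 30.03% (adherent) and 15.0% against 15.0% (neurosphere). With each cell thinned to 5000 UMIs, 2270 genes were seen in the median Tex14-high cell and 2216 in the median cell without Tex14 of the adherent library, and 2511.5 and 2482 in the neurosphere library. The libraries shared 9 barcodes among kept cells, and none was Tex14-high in both. Doublets were not called. The part of depth, mitochondrial share or doublets in the results below was not tested beyond the alternative settings given.

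Tex14 itself was unevenly spread among cells, and the values below describe the choice of the cells. It had 13011 UMIs in the kept adherent cells, of which 6681 (51.3%) lay in the Tex14-high cells. In the kept neurosphere cells it had 25025 UMIs, of which 12686 (50.7%) lay in the Tex14-high cells. The level in Tex14-high cells was 2147 CPM (CPM, a gene's UMIs scaled to the same total for each class of cells, over the genes left after removal of mitochondrial and ribosomal protein genes) in the adherent and 2517 CPM in the neurosphere library, and the level in the remaining cells with Tex14 was 222.1 and 248.2 CPM. No Tex14 UMI was seen in 35.9% of adherent cells (95% binomial interval 34.5% to 37.2%) and in 22.5% of neurosphere cells (21.3% to 23.8%). No cells known to lack Tex14 are in these cultures, so a background share from free RNA could not be set beside these.

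The Tex14-high cells were themselves far from alike. An adherent Tex14-high cell held 2 to 449 Tex14 UMIs with a median of 8, and a neurosphere Tex14-high cell 4 to 624 with a median of 18. Of the adherent ones, 39 had only 2 or 3 UMIs of Tex14, and 29 had 50 or more. Among the neurosphere ones none had 2 or 3 and 53 had 50 or more. The variance of the count over all kept cells was 35.1 times its mean in adherent and 70.0 times in neurosphere cells. The top 1% of cells, 50 adherent and 42 neurosphere, held 24.6% and 24.4% of all Tex14 UMIs. In the cell with the highest share, Tex14 made up 7.205% of 6232 UMIs (adherent) and 3.88% of 12201 UMIs (neurosphere).

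The 8% limit fell on a smooth part of the ranking. The last adherent cell inside it had a Tex14 share of 0.0669% and the next one outside 0.0668%. For neurosphere cells these shares were 0.0810% and 0.0803%. Within 20% of the limit there were 99 cells inside and 150 outside in the adherent library, and 86 and 139 in the neurosphere library. The limit cuts a continuous measure, and these shares do not say whether the cells form a type.

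**Figure D1:**
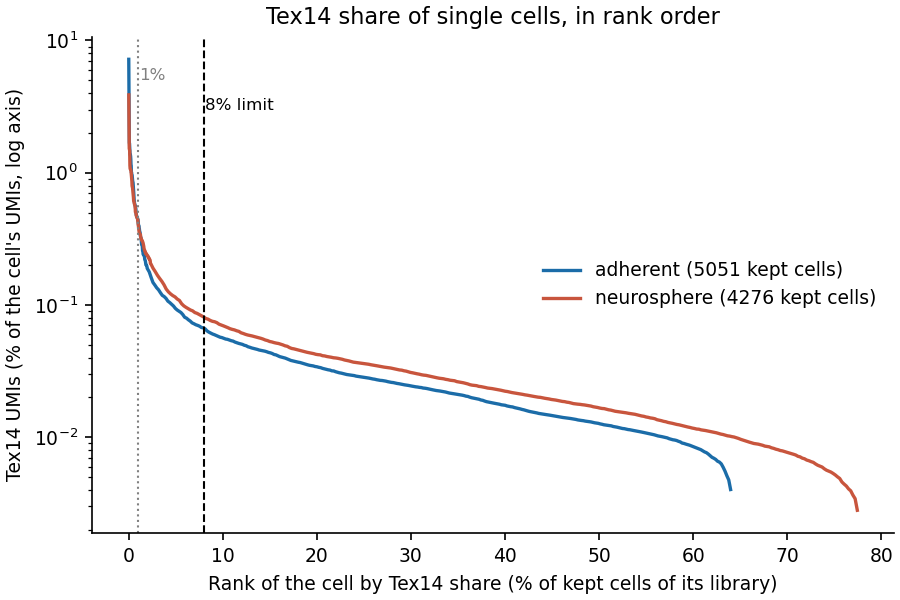
Kept cells of each library in order of their Tex14 share; the x axis gives the rank as a percent of kept cells and the y axis (log) the Tex14 UMIs as a percent of the cell's UMIs. Both lines fall from single cells at 7.205% (adherent) and 3.88% (neurosphere) and pass the dashed 8% limit at 0.0669% and 0.0810% without a step; cells at 0 are not drawn.

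The other markers given with these cells, both noncoding RNAs, were high in them in both cultures. Gm43689, a long intergenic RNA of 1 exon (chr3:137918019-137918445, minus strand), was at 39.5 CPM in adherent Tex14-high cells against 4.77 CPM in cells without Tex14, and at 34.3 against 3.53 CPM in the neurosphere library. These are 8.29-fold (log2 fold change 3.05, interval 2.62 to 3.50) and 9.71-fold (3.28, interval 2.76 to 3.84). Rab26os, antisense to Rab26 (chr17:24528248-24528744, plus strand), was at 102.8 against 14.4 CPM in the adherent library, 7.15-fold, and at 47.0 against 10.99 CPM in the neurosphere library, 4.28-fold. Rab26 itself, a small GTPase of secretory granules, was at 10.9 against 10.0 CPM and at 8.73 against 6.28 CPM, and the intervals of both log2 fold changes reached below 0. Traf7, the ubiquitin ligase gene whose start is nearest to that of Rab26os, had log2 ratios of -0.29 and -0.07. Neither neighbour passed 1.5-fold in either library.

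Across all genes, those higher in the top 8% of cells outnumbered those lower in the adherent library and were about as many in the neurosphere library, a balance that changed with the cells compared. Genes were compared by the log2 ratio of (CPM + 1), which understates the change of low genes, where at least 20 UMIs were expected in the Tex14-high cells at the pooled rate, and a ratio of 1.5-fold or more was counted. In the adherent library 921 of 9303 genes were higher (9.9%) and 197 lower (2.12%). In the neurosphere library 793 of 11026 genes were higher (7.19%) and 729 lower (6.61%). When the ratios were centred on the median gene (shifts of -0.08 and 0.02 on the log2 scale), the adherent counts became 729 and 310, so that 70.2% rather than 82.4% of the genes past the limit were higher. When the neurosphere comparison cells were weighted to the depth of the Tex14-high cells, 901 genes were higher and 497 lower there, and 64.4% rather than 52.1% of the genes past the limit were higher. Against all other neurosphere cells 658 genes were higher and 231 lower (74.0% higher). For the top 1% of cells alone the balance turned in both libraries, with 159 genes higher and 504 lower in adherent and 375 higher and 878 lower in neurosphere cells. With so few cells only 2689 adherent and 5870 neurosphere genes passed the floor, of which 1.67% and 2.11% were long noncoding, so the genes compared were a smaller and more abundant set.

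Among the 9049 genes that could be compared in both libraries, 288 were higher in both (3.18%) and 64 lower in both (0.707%). Of these 9049 genes, 874 were higher in adherent and 449 in neurosphere cells, and the 288 genes were 33.0% and 64.1% of them. Lower were 170 and 460 of the 9049, and the 64 genes were 37.6% and 13.9% of those. Opposite directions were seen for 17 genes that were higher in adherent and lower in neurosphere cells and for 1 gene the other way. Over the 9049 genes the ratios of the libraries had a Pearson correlation of 0.53 and a Spearman correlation of 0.34; both libraries are chosen on the same gene, and genes are not replicates.

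**Figure D2:**
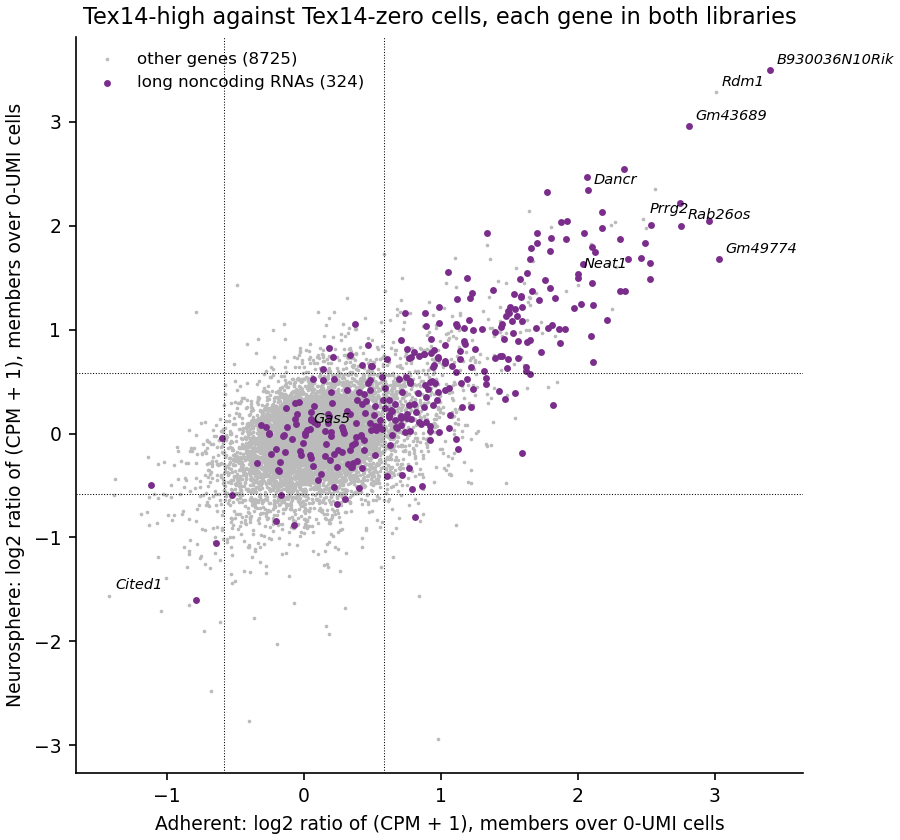
Each point is 1 of 9049 genes, with the log2 ratio of (CPM + 1) in Tex14-high over Tex14-zero cells of the adherent (x) and neurosphere (y) library; dotted lines mark 1.5-fold. The long noncoding RNAs (purple) fill much of the upper right, from Neat1 (2.00 and 1.53) to B930036N10Rik (3.40 and 3.50), while Cited1 lies at the lower left (-1.43 and -1.56).

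Long noncoding RNAs made up a large share of what was high in Tex14-high cells. They were 131 of the 288 genes higher in both libraries (45.5%), against 324 of the 9049 genes compared (3.58%), and 2 of the 64 genes lower in both. Of the 349 long noncoding genes compared in the adherent library 217 were higher and 5 lower (62.2% and 1.43%), with a median log2 ratio of 0.78 against 0.07 for 8949 protein-coding genes, of which 7.87% were higher. Of the 755 in the neurosphere library 351 were higher and 34 lower (46.5% and 4.50%), with a median of 0.50 against -0.03 for 10262 protein-coding genes, of which 4.30% were higher. With Malat1 and Neat1 left out, long noncoding RNAs took a median of 3.40% of the UMIs of an adherent Tex14-high cell. This compares with 2.10% in adherent cells without Tex14, and with 3.03% against 2.27% in the neurosphere library. Since these RNAs are scarce, a high level in Tex14-high cells can itself carry a gene past the floor. With the floor set instead in the other cells with Tex14, which are in neither class compared, long noncoding RNAs were 21.8% of 864 higher genes and 3.46% of all in adherent cells, and 37.1% of 603 and 5.33% in neurosphere cells, with medians of 0.74 and 0.39. With each cell thinned to 5000 UMIs, long noncoding genes seen per cell were counted, again without Malat1 and Neat1. Their median number was 87 against 55 in the adherent and 96 against 74 in the neurosphere library.

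The excess differed by class of noncoding gene. Antisense RNAs, which are transcribed from the opposite strand of another gene, were higher for 82 of 109 (75.2%) in adherent and 148 of 270 (54.8%) in neurosphere cells. RNAs from bidirectional promoters, which start beside a coding gene and run away from it, were higher for 19 of 25 (76%) and 43 of 63 (68.3%). Processed transcripts were higher for 58 of 95 (61.1%) and 67 of 166 (40.4%), and long intergenic RNAs for 56 of 118 (47.5%) and 89 of 246 (36.2%). With the floor set in the other cells with Tex14 these shares were 73.7% and 48.9% for antisense RNAs, 80% and 61.9% for RNAs from bidirectional promoters, 57.3% and 36.8% for processed transcripts and 42.1% and 26.8% for long intergenic RNAs, against 9.39% and 5.69% of all genes. The medians of long intergenic RNAs were then 0.44 and 0.10. Reads of a gene and of its antisense partner can be told apart only if counting used the strand, which Cell Ranger does by default; the setting used is not given in the sources used here. Whether reads in introns were counted, which can add to unspliced noncoding RNAs, is not given either.

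The steps of the Tex14 order followed the same line. In adherent cells the median log2 ratio of antisense RNAs against cells without Tex14 was 0.02 in the lower and 0.26 in the upper part of the other cells with Tex14, 0.98 in Tex14-high cells and 1.72 in the top 1%. In neurosphere cells these medians were -0.25, -0.10, 0.71 and 1.29. For the antisense RNAs past the floor set in the other cells with Tex14, the medians in Tex14-high cells and in the top 1% were 0.94 and 1.65 (adherent) and 0.55 and 0.99 (neurosphere). Protein-coding genes stayed between 0.03 and 0.07 above 0 in the last 3 of these steps in adherent cells, and between -0.08 and -0.03 over all 4 steps in neurosphere cells. The share of the UMIs of a cell that antisense and bidirectional promoter RNAs took together rose in the same order. Its median was 0.322%, 0.323% and 0.381% in adherent cells without Tex14 and in the lower and upper part of those with Tex14. It was 0.764% in adherent Tex14-high cells and 1.61% in the top 1%. In the neurosphere library it was 0.528%, 0.441%, 0.480% and 0.864%, and 1.54% in the top 1%, so that the cells without Tex14 there lay above the next 2 classes.

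**Figure D3:**
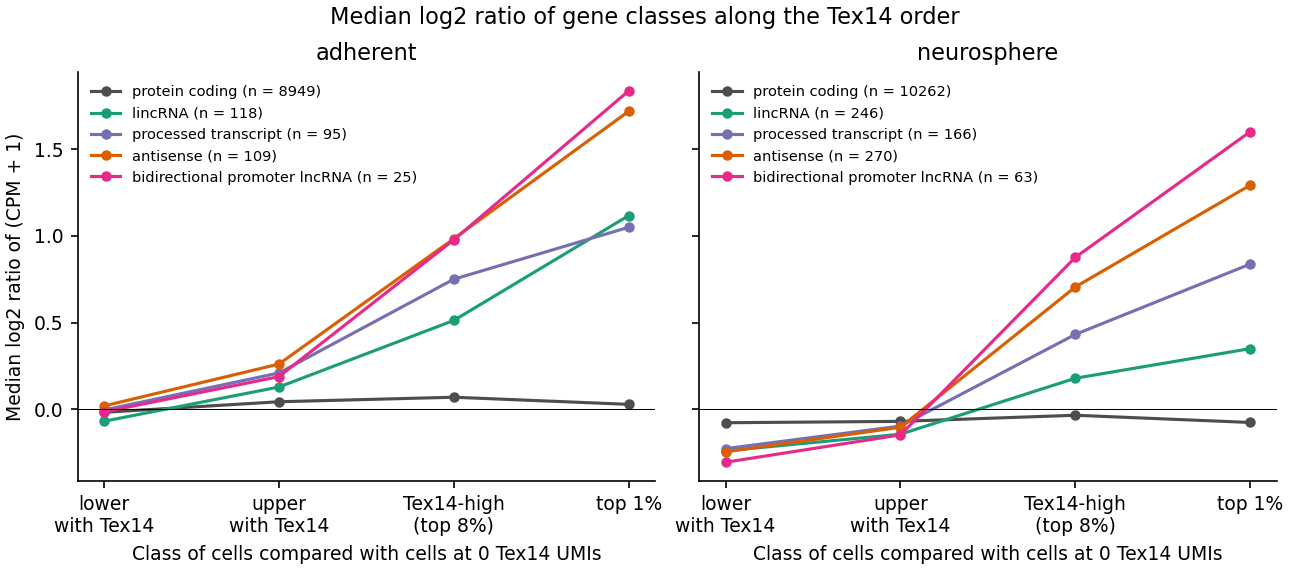
Median log2 ratio of (CPM + 1) against cells with 0 Tex14 UMIs (y) for 4 classes of cells with rising Tex14 share (x), by class of gene, in each library. Protein-coding genes stay near 0, while antisense RNAs reach 1.72 (adherent) and 1.29 (neurosphere) in the top 1% of cells.

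Coding genes beside these noncoding RNAs were mostly near 0. Antisense and bidirectional RNAs were paired with the protein-coding gene they overlap or whose start is nearest within 1 kb. In the adherent library 83 of 107 noncoding members were higher, and for 7 of those 83 the coding partner was higher too (8.43%, with 7.87% of all protein-coding genes higher). In the neurosphere library 183 of 300 were higher, and for 10 of those 183 the partner was (5.46%, with 4.30% of all protein-coding genes higher). The median ratio of the noncoding members that were higher was 1.44 (adherent) and 1.23 (neurosphere), and that of their partners was 0.15 and 0.06. The noncoding members were picked here for being higher, so only the partners' values are free of that choice.

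**Figure D4:**
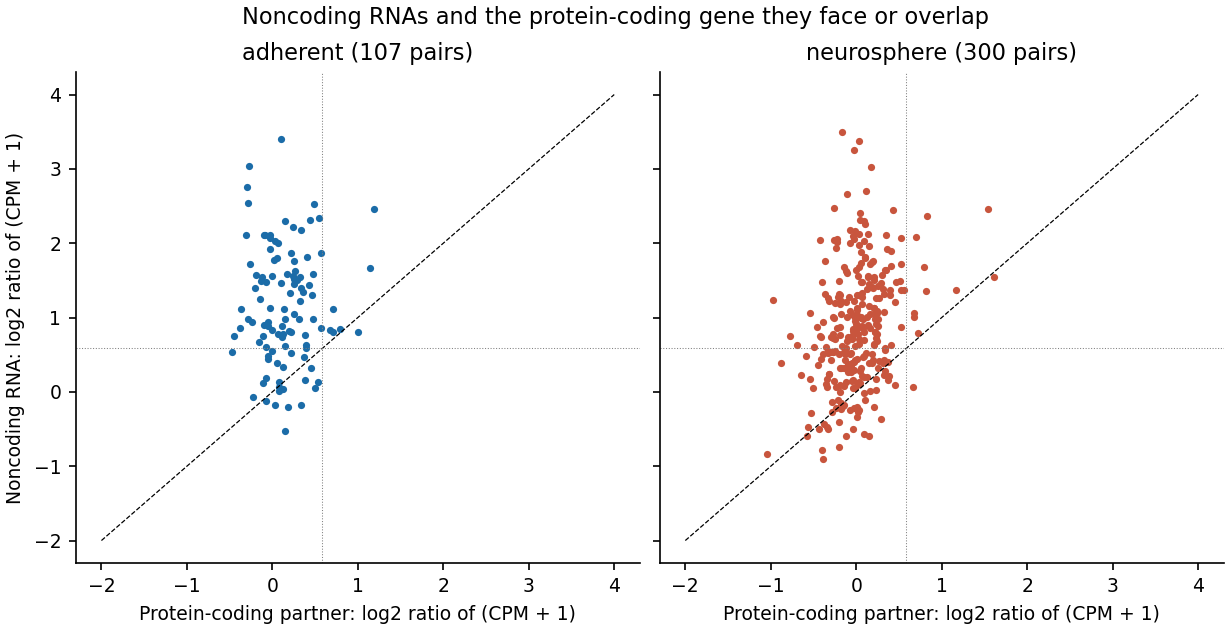
Each point is a pair of a noncoding RNA (y) and the protein-coding gene it overlaps or faces (x), both as log2 ratio of (CPM + 1) in Tex14-high over Tex14-zero cells; dotted lines mark 1.5-fold and the dashed line equal ratios. The noncoding members spread upwards to 3.40 (adherent) and 3.50 (neurosphere), with their partners near 0.

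B930036N10Rik, an antisense RNA of 1 exon at chr1:171500568-171504111 (minus strand), had the largest ratio in both libraries after Tex14, by the smaller of its 2 values. It was at 231.4 CPM in adherent Tex14-high cells against 20.98 CPM in cells without Tex14, 11.03-fold (interval of log2 3.27 to 3.66), and at 452.9 against 39.2 CPM in the neurosphere library, 11.6-fold (3.38 to 3.69). Its level rose over the whole order of cells: 35.7 and 62.6 CPM in the lower and upper part of the other adherent cells with Tex14, and 74.3 and 143.2 CPM in the neurosphere ones. Thinned to 5000 UMIs, 51.5% of adherent Tex14-high cells held a UMI of it against 9.96% of cells without Tex14, and 73.4% against 15.2% in the neurosphere library. Alyref2, the mRNA export factor gene on the other strand, had log2 ratios of 0.10 and -0.16. Apart from Gm43689, given above, and Dancr, given below, the other noncoding RNAs among the 12 largest ratios were 4930578M01Rik (2.33 and 2.55), A930029G22Rik (2.75 and 2.22), Gm35867 (2.18 and 2.13), A230083G16Rik (2.07 and 2.47) and Gm47962 (2.96 and 2.05). No function is given for them here.

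Host genes of small nucleolar RNAs, long noncoding RNAs with snoRNAs in their introns, were higher at shares at or below those of long noncoding genes in general. Of the long noncoding genes with a snoRNA inside, 14 of 27 were higher in adherent (51.9%) and 13 of 28 in neurosphere cells (46.4%), against 62.2% and 46.5% of all long noncoding genes compared. Of coding genes with a snoRNA inside 9 of 174 (5.17%) and 4 of 187 (2.14%) were higher, against 7.87% and 4.30% of all protein-coding genes. Tex14, which is left out of these counts, itself has annotated snoRNAs inside it on its strand, and Rab26os has 1. Snhg3 was at 1989 against 539.6 CPM (3.69-fold) in the adherent library and at 2125 against 516.2 CPM (4.12-fold) in the neurosphere library. Snhg4 was 3.78-fold and 3.69-fold, Snhg20 4.14-fold and 3.85-fold, and Snhg10 4.56-fold and 3.81-fold higher. Dancr, which also holds a snoRNA and is known as a long noncoding RNA that restrains differentiation, was at 328.4 against 77.4 CPM (4.24-fold) and at 312.0 against 60.8 CPM (5.14-fold). Gas5, which holds 10 snoRNAs, was at 1953 against 1928 CPM and at 802.4 against 781.4 CPM. Snhg1 was at 803.7 against 763.8 CPM and at 282.9 against 234.5 CPM. These genes were named after their values were seen, except Dancr and Gas5.

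Of the nuclear noncoding RNAs, Neat1, the scaffold RNA of paraspeckles, was at 575.9 against 143.5 CPM (4.01-fold) in adherent and at 1077 against 371.3 CPM (2.90-fold) in neurosphere cells. Malat1, an abundant RNA of nuclear speckles, was at 4048 against 3201 CPM and at 3540 against 3957 CPM, under the 1.5-fold limit in opposite directions. Neat1 was the only one of the 9 paraspeckle genes (the others are its proteins) past the limit in either library; the list medians were 0.29 and 0.21. That list and those of nonsense-mediated decay and nuclear exosome factors, which remove such RNAs, were made after the noncoding RNAs were seen to be high. Of 14 nonsense-mediated decay factors 1 was higher in adherent cells, Smg8 at 0.70 (0.49 against all other cells, within 1.5-fold), and none in neurosphere cells, against 9.9% and 7.19% of all genes. Of 18 exosome factors that could be compared 1 was higher in adherent cells, Dis3 at 0.60, which was within 1.5-fold under 7 of 14 alternatives, and none in neurosphere cells. No gene of either list was lower by 1.5-fold.

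**Figure D5:**
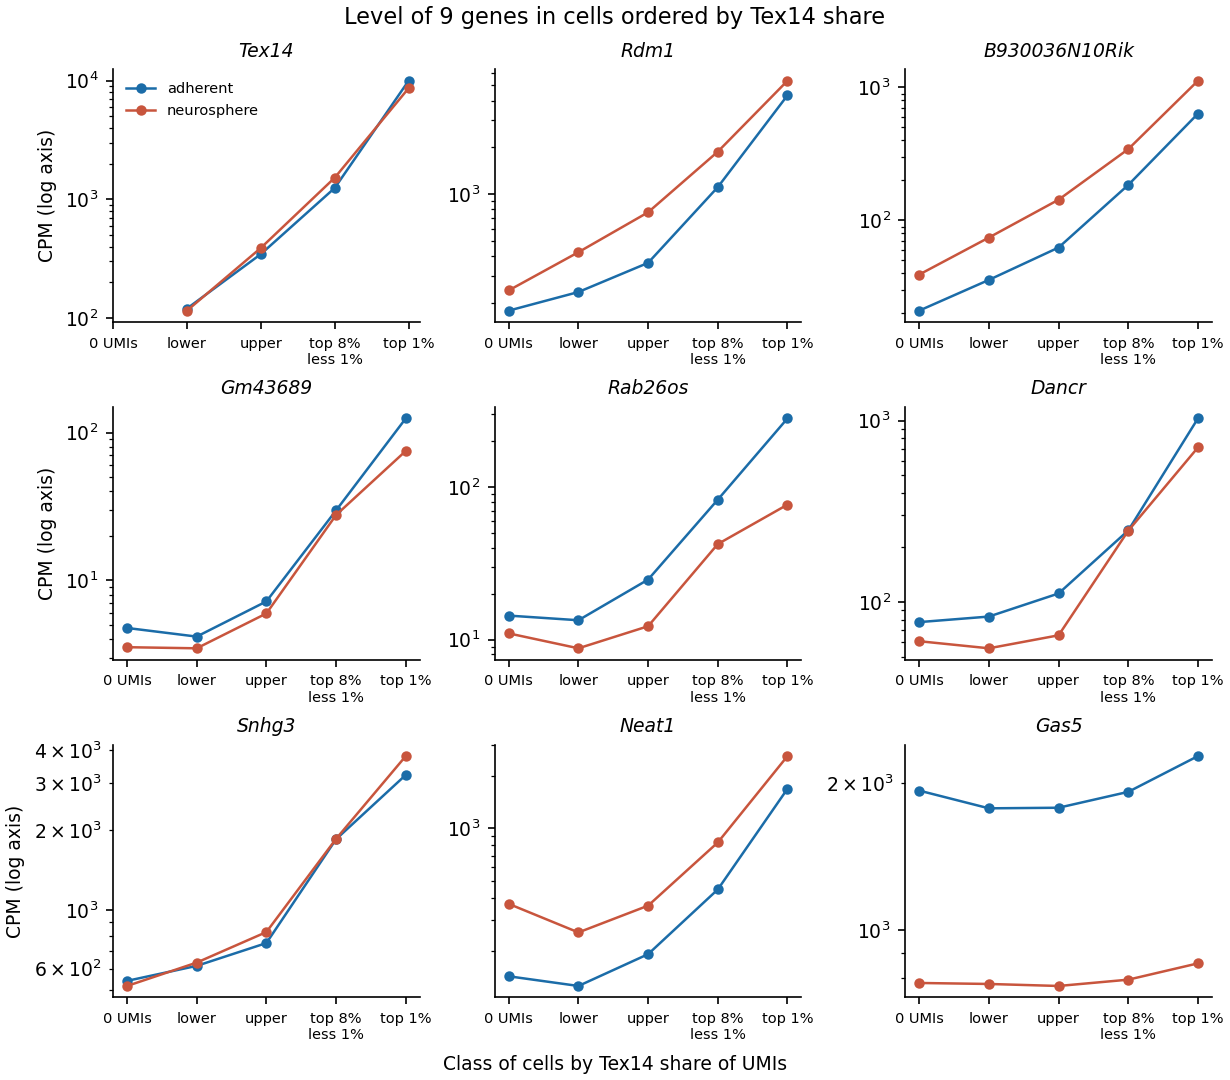
CPM (log axis) of 9 genes in 5 classes of cells by Tex14 share, from cells with 0 Tex14 UMIs (Tex14 itself is not drawn there) to the top 1%, in both libraries. Rdm1, B930036N10Rik, Gm43689, Rab26os, Dancr, Snhg3 and Neat1 climb most steeply at the last 2 classes, while Gas5 ends at 2267 (adherent) and 856.7 CPM (neurosphere), near its 1928 and 781.4 CPM in cells without Tex14.

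Among coding genes, Rdm1 had the largest ratio in both libraries, again by the smaller of its 2 values. Rdm1 encodes a RAD52-motif protein of the DNA damage response and lies on the same chromosome as Tex14 but far from it (chr11:101627195-101636100, plus strand). It was at 1442 CPM in adherent Tex14-high cells against 178.7 CPM in cells without Tex14, 8.07-fold (interval of log2 2.94 to 3.08). In the neurosphere library it was at 2365 against 241.1 CPM, 9.81-fold (3.23 to 3.36). Of the 404 adherent cells with the highest Rdm1 share 228 were Tex14-high (56.4%), and of the 342 such neurosphere cells 197 were (57.6%), against 8% of kept cells. Within the Tex14-high cells the Spearman correlation of the shares of Rdm1 and Tex14 was 0.56 (404 cells) and 0.47 (342 cells), each over cells of 1 library that share its depth. The cells with the highest share of B930036N10Rik were Tex14-high in 37.9% and 46.8%, those of Snhg3 in 41.1% and 42.7%, and those of Neat1 in 31.7% and 29.5%.

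Other coding genes high in both libraries are given by name and were not grouped by function. Prrg2, a membrane protein with a vitamin K-dependent Gla domain, was at 117.9 against 20.4 CPM and at 55.7 against 12.6 CPM. Tmem79, a membrane protein of the skin barrier, was 7.61-fold and 4.43-fold higher, and Nsun3, the methyltransferase of mitochondrial methionine tRNA, 4.90-fold and 3.20-fold. Trp53rkb, a kinase gene with a close paralog that its reads may be shared with, was 5.98-fold and 4.08-fold higher. Gm3448 was 6.35-fold and 5.34-fold higher and BC049715 5.85-fold and 4.61-fold. Protein-coding zinc finger genes were higher for 40 of 198 in adherent cells (20.2%) and for 21 of 319 in neurosphere cells (6.58%). Of all protein-coding genes 7.87% and 4.30% were higher. In both libraries 8 of 197 zinc finger genes were higher (4.06%), against 1.80% of all protein-coding genes. The 157 coding genes higher in both libraries had a median of 8 exons at most in a transcript, against 10 for all 8720 compared, and 11.5% of them had 1 or 2 exons, against 3.796%.

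Genes lower in Tex14-high cells of both libraries changed less. Cited1, a transcriptional coactivator, was lowest by the value nearer 0: it was at 129.2 against 348.8 CPM in adherent (log2 ratio -1.43) and at 68.8 against 205.2 CPM in neurosphere cells (-1.56). Mt3, a metal-binding protein, had log2 ratios of -1.07 and -1.19, and Ifi27l2a, an interferon-induced gene, of -1.01 and -1.39. Lgals3, which encodes galectin-3, was at 2946 against 5285 CPM and at 202.5 against 453.3 CPM. Il33, an alarmin cytokine, had ratios of -0.86 and -1.28, Mfap2, a microfibril protein, of -1.04 and -1.71, and Socs1, an inhibitor of cytokine signalling, of -1.13 and -0.88. Fam110c, Car5b, Kptn, Pik3ip1 and Gmpr complete the 12 lowest, with ratios between -1.65 and -0.84. The neurosphere ratio of Car5b was within 1.5-fold under 3 of 12 alternatives and turned to 0.11 against all other cells. The adherent ratio of Fam110c was so under 2 of 12, those of Kptn and Pik3ip1 under 2 of 11 each and that of Gmpr under 1 of 14. The neurosphere ratio of Socs1 was within 1.5-fold under 1 of 13. Cited1 fell along the order of cells as well: it was at 347.3, 286.2 and 139.4 CPM in the lower and upper part of the other adherent cells with Tex14 and in Tex14-high cells without the top 1%, and at 40.5 CPM in the top 1%. The neurosphere levels were 182.2, 122.8, 74.5 and 34.0 CPM.

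Some ratios of the neurosphere library rested on single cells. Ccl2, a chemokine, had the highest log2 ratio there (5.15), but 540 of its 632 UMIs lay in 1 cell, and without that cell it was at 18.3 CPM against 2.55 CPM. All 105 UMIs of Cxcl2 in Tex14-high cells came from 1 cell. The same held in part for Rsad2 (456 of 691 UMIs in 1 cell), Cxcl10 (215 of 324) and Ifit2 (56 of 98), interferon-induced genes with ratios of 1.17, 0.77 and 1.43. Without their leading cell they were at 47.0, 21.7 and 8.39 CPM, against 60.6, 37.2 and 6.58 CPM in cells without Tex14. The lowest neurosphere genes were Cyp4f18, with 0 UMIs in Tex14-high cells and 94 UMIs in 7 of the cells without Tex14 (at least 15.5-fold lower, with a floor of 3 counts over the Tex14-high cells), Chit1 (-3.12), Mucl2 (-3.03), Lcn2 (-2.95) and Csn3 (-2.77). The antisense RNA Gm26850 was at 14.5 against 0.491 CPM there. In the adherent library alone the lowest were Areg (-1.75), Phf11d (-1.56), Olfm1 (-1.39) and Mvd (-1.38), beside Cited1, and the antisense RNA Gm49774 was among the highest (8.86-fold, against 3.65-fold in the neurosphere library).

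Genes of the known work of TEX14 were compared next. Cep55, the midbody protein that TEX14 binds, had log2 ratios of -0.23 in adherent and 0.56 in neurosphere cells. Plk1, a mitotic kinase, had 0.11 and 0.40, and Kif23, a motor protein of the midbody and of germ cell bridges, 0.39 and 0.49. Rbm44, a bridge protein, had 1 and 0 UMIs in the Tex14-high cells. Of 30 midbody and abscission genes none was higher and 1, Vps4a, lower in adherent cells (median 0.12), against 2.12% of all genes lower, and 7 were higher in neurosphere cells (median 0.20), Kif14 and Aurkb among them at 1.17 and 0.82. Vps4a (-0.63) was within 1.5-fold under 3 of 14 alternatives. Of all genes 9.9% were higher in adherent and 7.19% in neurosphere cells, with medians of 0.08 and -0.02. Against all other neurosphere cells the median of the midbody list was 0.01. Kif14 (0.42) and Aurkb (0.08) were within 1.5-fold there, and were so with depth-weighted comparison cells too.

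Most germ cell genes were at or near 0, while a few were counted at similar levels in both sets of cells. Of 47 germ cell genes 3 could be compared, and none of them, Tex19.1, Syce2 and Brdt, passed the limit in either library. Tex19.1 was at 57.8 against 44.3 CPM, Syce2 at 58.8 against 74.4 CPM and Brdt at 15.7 against 18.1 CPM in adherent cells. In adherent Tex14-high cells 27 of the 47 had no UMI and in neurosphere ones 24. Ddx4, a helicase that defines germ cells, had 0 and 1 UMI, Dazl 0 and 2, and Mael, Zbtb16 and Tex101 none. The summed level of the list was 160.4 CPM against 157.3 CPM in the adherent library. In the neurosphere library it was 240.6 CPM against 216.3 CPM.

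Cell cycle lists depended on the comparison cells. Of 53 G2/M genes 2 were higher in adherent cells (median 0.11, with 0.08 over all genes) and 23 in neurosphere cells (median 0.55, with -0.02 over all genes), against 9.9% and 7.19% of all genes. The neurosphere median was 0.18 with comparison cells weighted to the depth of the Tex14-high cells, 0.23 with cells thinned to 5000 UMIs and 0.02 against all other cells. Of 41 G1/S genes compared in both libraries 1, Exo1, was higher in both (0.95 and 0.66), against 3.18% of all genes. In neurosphere cells 1 of 42 was lower, against 6.61% of all genes. The list medians were 0.05 and 0.16. The neurosphere median was 0.003 with depth-weighted comparison cells, -0.03 with cells thinned and -0.15 against all other cells. The neurosphere ratio of Exo1 fell to between 0.12 and 0.58 under 4 of 14 alternatives, among them all other cells and depth-weighted cells. Cdca2, which recruits a phosphatase to chromosomes in anaphase, was higher in both as well (0.68 and 1.14), but was within 1.5-fold under 3 of 14 alternatives in adherent cells and under 1 of 14, thinning, in neurosphere cells (lowest 0.52 in each).

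The medians of the other lists are read against 0.08 over all genes in adherent and -0.02 in neurosphere cells. Immediate early genes, which respond fast to stimuli, were higher for 4 of 19 in adherent cells, against 9.9% of all genes, Egr1 at 1.63 and Klf2 at 1.05. Their adherent median was 0.21, but 0.08 against all other cells and 0.01 with cells thinned to 5000 UMIs. In the neurosphere library 1 was higher (Klf2 at 0.90) and 2 lower, against 7.19% and 6.61% of all genes. Ier3 (-0.73) and Btg2 (-0.99), lower there, were within 1.5-fold against all other cells. The medians of heat shock, hypoxia and p53 target genes lay between -0.07 and -0.03 in adherent and between -0.03 and 0.11 in neurosphere cells, where the heat shock median was -0.06 with depth-weighted cells. Integrated stress response genes had medians of -0.14 and 0.30 (0.16 with depth-weighted cells). Of 20 compared, 1 was higher and 2 lower in adherent cells, Nupr1 among the latter at -1.02, against 9.9% and 2.12% of all genes, and 2 were higher in neurosphere cells, against 7.19%. Slc7a11, the cystine transporter, had 0.62, which was within 1.5-fold under 6 of 14 alternatives, and 1.096. Interferon response genes had -0.18 and -0.32, primary cilium genes 0.06 and -0.12. The interferon median in neurosphere cells was -0.10 with the comparison cells weighted by depth and 0.10 against all other cells. Histone genes, a list made after values were seen, had 3 and 5 genes compared, with medians of 0.84 and 0.78. The neurosphere median was 0.27 against all other cells, -0.20 without cells over the 95th percentile of UMIs and -0.051 without the top 1%. In adherent cells 2 of 3 were higher, against 9.9% of all genes, and in neurosphere cells 3 of 5 were higher and 2 lower, Hist1h2bc at -1.56, against 7.19% and 6.61%. Of the list, the linker histone gene Hist1h1c was higher in both (1.70 and 1.36). Hist1h1a, Hist1h3c, Hist1h4d and Hist1h2ae, outside that list and named for being higher in both, had ratios between 0.70 and 1.69.

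Markers of neural cell types had medians below that of all genes in neurosphere Tex14-high cells when set against cells without Tex14, and nearer 0 when set against all other cells. Medians were -0.16 for the oligodendrocyte lineage, -0.44 for astrocytes, -0.31 for neural stem cells and -0.51 for cartilage matrix genes, with 5 of 14, 3 of 6, 4 of 12 and 3 of 9 lower, against 6.61% of all genes. Fabp7, a fatty acid binding protein of neural progenitors, was at 37.7 against 131.7 CPM and Col2a1, a cartilage collagen, at 41.7 against 172.7 CPM. Against all other neurosphere cells these 4 medians were 0.06, 0.01, 0.01 and -0.10. In adherent cells the medians were 0.19, -0.06, 0.04 and 0.16, and 3 of 10 oligodendrocyte lineage genes were higher, against 9.9% of all genes. A list of 13 genes variable in both cultures, chosen from these libraries, left out Tex14, which the study names among such genes. It had medians of -0.28 and -0.60, but 0.23 in the neurosphere library when cells were thinned before they were ranked.

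Defining markers of immune and endothelial cells were nearly absent, while mesenchymal and neuronal genes were counted. Of 12 immune genes 1 could be compared in the adherent library, Cd68, which was lower (4.18 against 11.5 CPM, 13 and 169 UMIs), and none in the neurosphere library. Cx3cr1, under the floor, was at 6.43 against 2.25 CPM in adherent and 5.16 against 1.08 CPM in neurosphere cells. Ptprc, Aif1, Tyrobp and C1qa had no UMI in Tex14-high cells of either. Of 8 endothelial genes Flt1 alone could be compared (0.04 and -0.09), and Cdh5 and Kdr had no UMI. Pecam1, under the floor, had 12 and 23 UMIs in Tex14-high cells. It was at 3.86 against 1.02 CPM in adherent and 4.56 against 2.45 CPM in neurosphere cells. The endothelial list summed to 33.7 against 29.0 CPM and to 28.8 against 28.0 CPM. Of 9 mesenchymal genes none and 3 could be compared, with none past the limit, and their summed level was 10.6 against 7.83 CPM in adherent and 498.7 against 494.7 CPM in neurosphere cells. The neuronal list summed to 66.5 against 49.4 CPM and to 258.1 against 316.2 CPM. Of 3 neuronal genes compared 1, Syt1, was higher in adherent cells, against 9.9% of all genes (1.08, and -0.24 in neurosphere cells). Of 4 simple keratins 2 could be compared in neurosphere cells and both were lower (median -1.58), against 6.61% of all genes. Of the genes the study followed, the receptor genes P2rx7 and P2rx4 had ratios of -0.11 and -0.27 in adherent and -0.73 and -0.76 in neurosphere cells, Mmp15 -0.13 and -0.17, and Mmp16 0.50 and -0.37. Of 4 metalloproteinases compared in neurosphere cells 1 was lower, Mmp2 at -1.098 (-0.33 against all other cells), against 6.61% of all genes. The neurosphere ratios of P2rx7 and P2rx4 were within 1.5-fold under 4 of 13 and 3 of 14 alternatives, at -0.15 and -0.36 against all other cells. The median of the purinergic receptors was -0.11 and -0.48 (-0.18 against all other neurosphere cells), that of metalloproteinases -0.03 and -0.31, that of Rab GTPases 0.11 and -0.23 and that of nuclear noncoding RNAs 0.51 and 0.04.

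Genes beside Tex14 on chromosome 11 had a median log2 ratio of 0.36 in adherent and 0.08 in neurosphere cells, against 0.08 and -0.02 over all genes. Within 500 kb of its start 25 other genes were counted, of which 12 could be compared in adherent and 14 in neurosphere cells. In adherent cells 4 of the 12 were higher, against 9.9% of all genes, and none lower: Ska2, a kinetochore gene, at 1.06, Smg8 at 0.70, Mir142hg at 0.69 and Ppm1e at 0.61. Smg8 (lowest 0.49) was within 1.5-fold under 2 of 11 alternatives, Mir142hg under 2 of 14 and Ppm1e under 7 of 11, and against all other adherent cells the calls of Smg8 and Ppm1e ended. In neurosphere cells 2 of the 14 were higher, Ska2 (0.92) and Prr11 (0.93), against 7.19% of all genes, and 2 were lower, Ypel2 (-0.87) and Ppm1e (-0.65), against 6.61%. Against all other neurosphere cells Ska2, Prr11, Ypel2 and Ppm1e were within 1.5-fold, at 0.56, 0.44, -0.34 and -0.26, and Prr11 and Ppm1e were so with depth-weighted cells too. The other genes compared lay between -0.16 and 0.56 in adherent and between -0.33 and 0.53 in neurosphere cells.

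Tex14-high cells also lay near each other when Tex14 was not used. For this, cells were thinned to 5000 UMIs, the 2000 most variable genes without Tex14, Gm43689 and Rab26os were reduced to 20 principal components, and the 30 nearest neighbours of each cell were taken. Of the neighbours of a Tex14-high cell 28.6% were Tex14-high in the adherent and 23.9% in the neurosphere library, where such cells were 6.79% and 8.06% of all cells with enough UMIs. For cells without Tex14 the share was 2.24% and 3.75%, and for the other cells with Tex14 3.82% and 4.82%. For the top 1% of cells it was 66.7% (33 cells) and 60.3% (41 cells). Cells of 1 library are not replicates, and no test was made of these shares.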

How the data were processed

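RNA of single cells was captured at its 3’ end (10x Genomics chemistry, 2 libraries). The authors deposited, per library, a matrix of raw UMI counts for 32285 genes and the called cells, written by Cell Ranger 7.0.1 (genome mm10, from the submitters' processing notes), without normalization. The mitochondrial (13) and ribosomal protein genes (101) were removed, and cells with at least 1000 UMIs and 1250 genes (adherent) or 2250 genes (neurosphere) were kept, which left 46290996 and 64943938 UMIs. UMIs were summed over the members and over cells with 0 Tex14 UMIs and given as CPM, with 1 CPM added before ratios. No p-value was computed. Gene classes and positions came from GENCODE M21 (GRCm38), which matched 32158 of 32171 genes, and promoters from RefSeq (GRCm38.p6). Scripts ran in Python 3.11.15 (scikit-learn 1.9.0, scipy 1.17.1), and the size rule was tested on simulated data. The members, gene lists and genes were chosen with earlier results of these data known: 25 lists at the start and 4 more after values were seen.

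Genes named were Tex14 and its markers, the 12 largest and 12 smallest ratios in both libraries, the 5 largest and 5 smallest in each library, genes within 500 kb of Tex14 (those past 1.5-fold by name and the others as a range, with 1 gene not reported by name here), up to 4 members of each list among genes with a ratio, partners of TEX14 and the receptors and proteases the study followed. Genes named beyond this rule, chosen after their values were seen, are the Snhg genes, defining markers of germ, immune and endothelial cells given by UMIs, Hist1h1a, Hist1h3c, Hist1h4d, Hist1h2ae, Tmem79, Trp53rkb, Nsun3, Cxcl10, Traf7 and Alyref2. Alternatives were 4% and 12% in place of 8%, all other cells or depth-weighted cells for comparison, thinning, mean CPM of single cells, other cell, gene and size limits, another scaling and, added after seeing the data, the top 1% alone, the members without it and a floor set in the other cells with Tex14.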

Additional observations from a re-analysis of the deposited data

Results flagged for a closer look

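Among the genes named, 4 lay past 1.5-fold in opposite directions in the libraries, and the difference was not tested. Lcn2 had log2 ratios of 0.98 in adherent and -2.95 in neurosphere cells, on 16 and 6 Tex14-high cells with a UMI. Ppm1e, a neighbour of Tex14, had 0.61 and -0.65. Its ratio was within 1.5-fold under 7 of 11 alternatives in adherent and 4 of 14 in neurosphere cells, and in both libraries (0.37 and -0.57) when the top 1% of cells was left out, which was tried after the data were seen. Hist1h2bc had 0.84 and -1.56. Rsad2 had -0.79 and 1.17, and 456 of its 691 UMIs in neurosphere Tex14-high cells lay in 1 cell.

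Barcodes left out by the filter on UMIs and genes also held Tex14. In the 713 left out of the adherent library it was at 591.8 CPM, above the 7.65 CPM that a count of 3 would give, with a UMI in 109 of them (15.3%) and up to 24 in 1. In the 675 left out of the neurosphere library it was at 398.5 CPM, above 5.22 CPM, with a UMI in 73 (10.8%) and up to 29 in 1. The level over all kept cells was 281.1 and 385.3 CPM.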

How the results depend on the processing

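With 1 library per culture there is no replicate to leave out, and no paired analysis was possible because each group holds 1 sample and no result comes from a test. The 6 counts of genes (higher and lower in adherent, 921 and 197; in neurosphere, 793 and 729; in both, 288 and 64) moved by over 1.5 times as follows, in that order where all 6 are given. With at least 50 UMIs expected they were 393, 120, 436, 468, 119 and 38, with no floor 3632, 493, 1839, 1290, 1225 and 126, and at 2-fold 307, 25, 364, 151, 127 and 4. With cells thinned before ranking, those higher were 445, 330 and 137, and those lower 300 in neurosphere and 22 in both. With 5 CPM added, those lower were 105, 388 and 32. Against all other cells, those lower were 231 in neurosphere and 35 in both. In adherent cells 333 were lower with the top 4% and 310 when centred. For the top 1% alone, 159 were higher and 504 lower in adherent, 375 higher in neurosphere, and 44 higher and 105 lower in both. The floors, limits and numbers of cells change how many genes can pass by construction; the cause of other moves was not tested. Long noncoding RNAs were a larger share of the higher genes than of all genes compared under all 18 alternatives in both libraries (13.8% to 43.0% of higher adherent genes and 12.5% to 61.8% of higher neurosphere genes).

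Of 4883 recomputed gene ratios 7 that were past 1.5-fold changed direction and 673 others moved by more than their counting error, and of 835 list medians 3 past 1.5-fold changed direction and 231 others moved. All 10 were in the neurosphere library. Car5b was at 0.11 against all other cells. Thinned, Cmpk2 was at -0.0012 and the list variable in both cultures at 0.23. Without cells over the 95th percentile of UMIs, Cmpk2 was at -0.32, Rsad2 at -0.27 and the histone list at -0.20. In the top 1%, Cryab was at 0.054, Cxcl10 at -3.98 and Rsad2 at -1.56, and without the top 1% the histone list was at -0.051. The cause was not tested. The share of Tex14-high neighbours of Tex14-high cells lay between 27.7% and 33.1% in adherent and between 22.6% and 26.3% in neurosphere cells under the 4 alternatives run in each. Genes under the floor, such as most germ cell and immune genes, could not be compared at this depth.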
